A study of Homo sapiens with 6 samples.

Results

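The zinc finger genes of chromosome 19 were examined in HSC-4 cells, a cell line from a human squamous carcinoma of the mouth, after treatment with DAPT. Members were taken as the protein-coding genes on chromosome 19 of the count tables whose symbol is ZNF followed by a number and at most 1 letter. This gave 246 of the 58884 counted genes. RNA had been sequenced from 3 cultures given 50 μM DAPT, a γ-secretase inhibitor that blocks Notch receptor cleavage, and from 3 control cultures, all harvested at 24 h. The paper describes DMSO as the vehicle of the controls, whereas the names of their count columns carry the letters GM, which are not explained there. All 6 libraries came from this 1 cell line, for which no genetic change is described, and no label says whether the cultures were set up separately, so p-values measure the spread between these samples, which may be technical.

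Proteins of this family bind DNA through fingers of the C2H2 type, in which a pair of cysteines and a pair of histidines hold a zinc ion. Many also carry a KRAB domain near the N-terminus, which recruits the corepressor TRIM28 and, through it, the histone H3 lysine 9 methyltransferase SETDB1 and HP1 proteins. KRAB zinc finger proteins are best known for silencing transposable elements, and their genes lie in tandem arrays on chromosome 19 that arose by repeated duplication.

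A C2H2 finger pattern occurred between 1 time (*ZNF428*) and 39 times (*ZNF729*) in the proteins translated from the annotated coding sequences, with a median of 13. A KRAB A box pattern, counted where at least 6 of its 7 most conserved residues were present, was found in 207 members and not in 39. The lines below show finger-coding DNA of 5 members from the hg38 genome, each from the first cysteine to the end of the linker to the next finger. They are shown because this repeated unit is what the members share. Short reads can match several members only where such copies are nearly identical. Capitals mark the codons of the zinc-binding cysteines and histidines, and all lie on the plus strand.
ZNF333, chr19:14718513-14718590: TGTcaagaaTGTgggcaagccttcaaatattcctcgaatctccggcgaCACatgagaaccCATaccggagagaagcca
ZNF430, chr19:21057011-21057088: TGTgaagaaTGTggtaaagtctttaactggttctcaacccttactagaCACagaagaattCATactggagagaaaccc
ZNF431, chr19:21183003-21183080: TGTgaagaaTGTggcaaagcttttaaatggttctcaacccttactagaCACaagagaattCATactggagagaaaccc
ZNF146, chr19:36236660-36236737: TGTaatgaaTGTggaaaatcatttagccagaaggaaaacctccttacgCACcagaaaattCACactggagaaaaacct
ZNF114, chr19:48286540-48286617: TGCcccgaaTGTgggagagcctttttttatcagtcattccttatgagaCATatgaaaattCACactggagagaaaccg

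*ZNF430* and *ZNF431*, from the same array, shared 72 of 78 bases in this unit, whereas *ZNF333* and *ZNF146* shared 45 of 78. Reads that mapped to several places were not counted, so the values of close copies are uncertain. Over whole genes, however, most of the sequence was distinct. A median of 99.6% of the 75-base windows in the exons of a member occurred once in the genome, and 217 of the 246 members reached at least 95%. The lowest value was that of *ZNF98*, at 62.4%. In addition, 40 members shared over 10% of their exonic bases with another gene on the same strand, where reads were not counted either.

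Total counts per library lay between 12276313 and 16317672, and 3 reads, taken as the smallest signal, corresponded to between 0.187 and 0.248 CPM (reads per 1000000 assigned reads, with library totals scaled by TMM factors). This limit covers counting error only. The Notch target gene *HES1* lay between 42.5 and 50.3 CPM in the controls and between 27.2 and 27.9 CPM with DAPT. Of 8 markers of squamous epithelium, all were tested, with summed levels of 5186 to 5361 CPM in the controls and 3339 to 3479 CPM with DAPT, a sum to which *KRT5* contributed most. Of these markers 5 were lower, *CDH1* and *EPCAM* were higher (log2 fold change 0.27 each) and *DSG3* was not called (-0.06). *KRT14* was nearly absent, at 3.54 CPM or less in every library. Markers of immune cells summed to at most 0.217 CPM and those of endothelium to at most 1.37 CPM in any library, with *CD3E* at 0 in all. Control replicate 1 stood apart, since 6 fibroblast markers summed to 559.7 CPM there and to between 48.9 and 56.7 CPM in the other 5 libraries, nearly all of it from *COL1A1*. *COL1A2* was at 215 CPM in that library and at 2.02 CPM or less in the others, and *DCN* at 20.5 and at most 0.166 CPM. The results are therefore also given without control replicate 1.

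Reads were found for 227 members, and 19 had no read in any library, of which 10 lay in the array of the proximal short arm. A further 52 had 49 reads or fewer over all 6 libraries and did not pass the filter on low counts, which left 175 tested members. Passing rested on 1 group in few cases, as 3 tested members reached the filter's level in all DAPT libraries but not in all controls, and 1 the reverse. Mean levels of the tested members ran from 0.840 to 119 CPM, with a median of 7.13 CPM. Per kilobase of exon, their median mean level was 1.39 RPKM (CPM divided by the exonic length in kilobases), against 6.59 RPKM for the 706 other protein-coding genes tested on chromosome 19.

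With DAPT, transcripts of the zinc finger genes were on the whole slightly more abundant. Summed over all 246 members, they made up 1810.3, 1702 and 1739 CPM in control replicates 1, 2 and 3 and 1971, 1944 and 1929.9 CPM in the DAPT libraries. The means were 1751 ± 54.9 CPM (SD, n = 3) for the controls and 1948 ± 20.6 CPM (SD, n = 3) with DAPT. Every DAPT library lay above every control, and the control nearest to them was replicate 1, the library with fibroblast markers. In bulk RNA, more cells of a kind and more RNA per cell cannot be told apart.

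Single genes were compared with edgeR's quasi-likelihood test, with p-values adjusted by the Benjamini-Hochberg method over the 15001 genes tested, and were called at an adjusted p under 0.05. By this rule 45 of the 175 tested members were called (25.7%), against 35.2% of all tested genes. Higher with DAPT were 43 (24.6%), where 17.2% of all tested genes were, and 2 were lower (1.14%), where 18% of all tested genes were. In this fit the share of increases was above the background and that of decreases far below it. The first did not hold in every fit. DESeq2 called 21 members higher, which at 12% was the 12% of all tested genes, and at an adjusted p under 0.01 in edgeR 9.71% of the members and 10.1% of all tested genes were higher. Decreases stayed rare, with 1 member lower in DESeq2 (0.571%) against 14.5% of all tested genes. Regardless of the test, 136 of the 175 members had a log2 fold change above 0 (77.7%), against 51.3% of all tested genes. All 3 DAPT values lay above all 3 control values in 61 members, with 23.6% of all tested genes doing so, and below them in 6 members, with 22.7% of all tested genes doing so. The changes were small. The median log2 fold change was 0.18 for the members and 0.01 for all tested genes, the 43 higher members ranged from 0.19 to 0.93 with a median of 0.37, and edgeR called 0 members with a change of at least 2-fold. At an unadjusted p under 0.05 this number was also 0, as it was with DESeq2 and limma-voom.

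**Figure D1:**
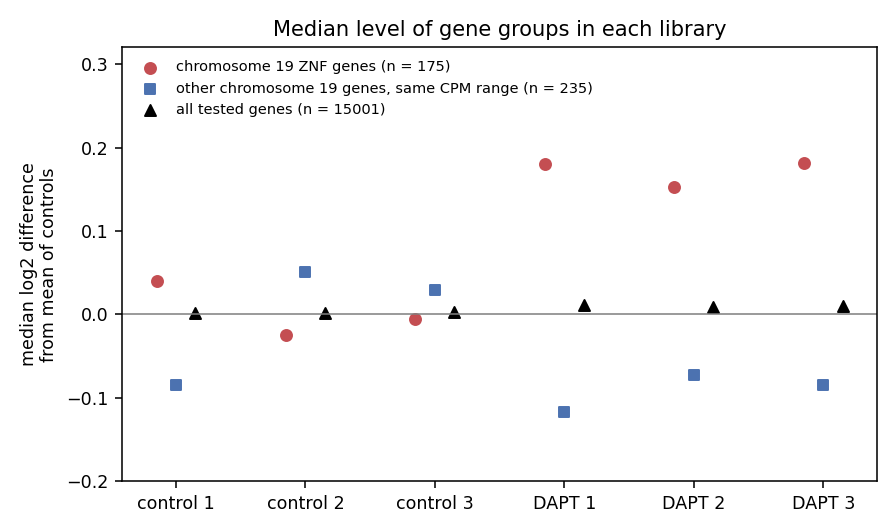
Median log2 difference from the mean of the 3 controls for each library (x axis) and 3 groups of genes, the 175 tested zinc finger genes (circles), 235 other protein-coding genes of chromosome 19 in the same range of CPM (squares) and all 15001 tested genes (triangles). The zinc finger genes lay between -0.02 and 0.04 in the controls and between 0.15 and 0.18 with DAPT, while all tested genes stayed between 0.00175 and 0.0118.

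Without control replicate 1, 48 members were higher and 2 lower, and the median log2 fold change was 0.20. Of the 43 higher members, 37 were among these 48. Leaving out control replicate 2 had the largest effect and gave 23 higher members (13.1%, against 12.9% of all genes tested in that fit) and a median of 0.15. Leaving out DAPT replicate 1 gave 28 higher members (15.9%, against 13.7%). Without control replicate 1 the shares were 27.3% and 18.0%. All 43 had a log2 fold change above 0 in each of 15 other fits that tested them. By contrast, 17 of the 43 were called in every one of the 6 fits that left out a library. The 21 that DESeq2 called were all among the 43.

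To set the members beside genes of the same chromosome and level, the other protein-coding genes of chromosome 19 between 2.23 and 20.7 CPM were taken, the range between the 10th and 90th percentile of the members. Of these 235 genes, 19 were higher with DAPT (8.09%) and 45 lower (19.1%), with a median log2 fold change of -0.11. In the same range, 32 of 139 members were higher and 1 lower, with a median of 0.18. The members were also divided by level into 4 bins of nearly equal size. In the lowest bin, 4 of 44 were higher and 0 lower, compared with 4 higher and 16 lower among 104 other genes of the chromosome. In the highest bin, 18 of 44 members were higher and 1 lower, compared with 51 higher and 88 lower among 390 other genes. Levels in that bin were not closely matched, with a median of 19.4 CPM for the members and 39.1 CPM for the other genes. The median log2 fold change of the members lay between 0.16 and 0.20 in the 4 bins, and that of the other genes between -0.17 and -0.04. These values are a description, and the 2 sets were not compared by a test of their own.

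**Figure D2:**
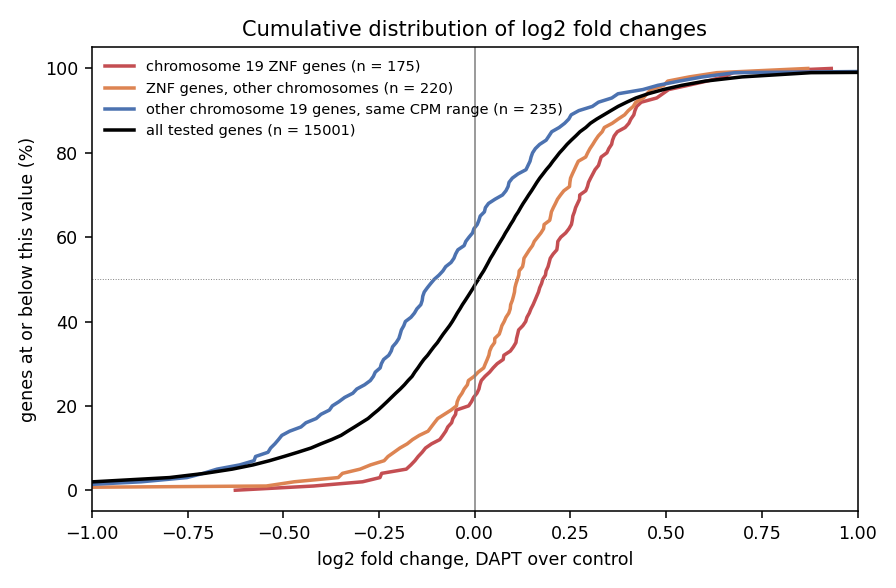
Cumulative share of genes (y axis, percent) at or below a log2 fold change of DAPT over control (x axis) for 4 groups of genes. The curve of the chromosome 19 zinc finger genes crosses 50% at 0.18, that of zinc finger genes on other chromosomes at 0.11, that of all tested genes at 0.01 and that of other chromosome 19 genes in the same range of CPM at -0.11.

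The members also differed from their neighbours in base composition. Their exons had a median GC content of 43.8%, against 59.8% for the other genes of chromosome 19 in the same range of CPM. Across the 175 members the log2 fold change had a Spearman correlation of -0.29 with GC content, of 0.19 with exonic length and of 0.21 with the number of fingers, and these points share the same 6 libraries. Across all 15001 tested genes the correlation with GC content was -0.15 and that with length 0.12. An offset for GC content and length in each library, fitted across all genes, gave 41 higher members (23.4%, against 18.6% of all tested genes). With it 3 members were lower (1.71%, against 20.4%) and their median was 0.16. Of the other 235 genes, 24 were then higher and 45 lower, with a median of -0.05. Among all 706 other tested protein-coding genes of chromosome 19, the offset moved increases from 74 to 125 and decreases from 160 to 146. Among protein-coding genes without a ZNF symbol on any chromosome, 2396 lay within the members' range of both CPM and GC content (38.9% to 59.1%). Of these, 13.9% were higher and 18.2% lower, with a median of -0.02, whereas 24 of 112 members within the same limits were higher (21.4%) and 1 lower, with a median of 0.18. In control replicate 1 the other chromosome 19 genes lay at -0.08, as low as in the DAPT libraries (-0.12 to -0.07), and without that library their median log2 fold change was -0.16, with 16 genes higher and 65 lower.

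Zinc finger genes on other chromosomes likewise had more called increases than decreases. Of 220 tested, 58 were higher with DAPT (26.4%, against 17.2% of all tested genes) and 10 lower (4.55%, against 18%). Their median log2 fold change was 0.11. DESeq2 called 38 of the 220 higher and 6 lower, where it called 12% of all tested genes higher and 14.5% lower. With the offset for GC content and length, 63 were higher and 13 lower, where 18.6% and 20.4% of all tested genes were. Without control replicate 1, 63 were higher and 10 lower, with a median of 0.14, where 18.0% and 19.1% of all tested genes were. Whether they differed from the members was not tested.

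The named increases were moderate, and the rule for naming required them to be clear of the controls. They were the 12 largest log2 fold changes among 41 higher members whose groups did not overlap and whose mean was 1 CPM or more. All 12 carry the KRAB pattern, as do 37 of the 43 higher members and 143 of the 175 tested members. *ZNF333*, a KRAB zinc finger gene on the short arm (chromosome 19, 14689801 to 14733746 of GRCh38), was at 5.42, 5.85 and 3.98 CPM in the controls and at 7.86, 9.07 and 7.91 CPM with DAPT. Its log2 fold change was 0.69 ± 0.15 (SE, with an adjusted p = 0.000938 in edgeR), the largest of the 12.

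*ZNF430* (21020634 to 21060050) and *ZNF493* (21397119 to 21427573) lie in the array of the proximal short arm. *ZNF430* had nearly identical control values of 12.02, 11.92 and 11.93 CPM and rose to 18.64, 16.74 and 14.98 CPM. This was a log2 fold change of 0.49 ± 0.10 (SE, with an adjusted p = 0.000633 in edgeR), the smallest adjusted p among the increases of the 12. *ZNF493* was at 6.17, 6.28 and 5.72 CPM in the controls and at 8.25, 9.29 and 8.91 CPM with DAPT. The third gene named from this array, *ZNF681*, was at 3.24, 3.32 and 3.56 CPM in the controls and at 5.002, 4.46 and 4.69 CPM with DAPT. Its log2 fold change was 0.49 and was 0.35 with the offset for GC content and length (adjusted p = 0.0957, edgeR). It was called in the fit of all libraries (adjusted p = 0.0245) but not when control replicate 1 or 2 or DAPT replicate 1 or 3 was left out (adjusted p between 0.0511 and 0.08).

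*ZNF350* (51964340 to 51986856) encodes a repressor that binds BRCA1 and is also called ZBRK1. It was at 2.18, 2.17 and 2.65 CPM in the controls and at 4.03, 3.51 and 3.38 CPM with DAPT. Its log2 fold change was 0.65 ± 0.19 (SE, with an adjusted p = 0.0117 in edgeR). It was not called without DAPT replicate 1 (adjusted p = 0.0572) or by DESeq2 (adjusted p = 0.0676). *ZNF649* lies close by (51889235 to 51905040). It rose from 1.37, 1.81 and 1.49 CPM to 2.60, 1.97 and 2.84 CPM, a log2 fold change of 0.67 (adjusted p = 0.0358, edgeR). It was not called when control replicate 1 or 3 or DAPT replicate 1 or 3 was left out (adjusted p between 0.0846 and 0.131). *ZNF616* and *ZNF888* belong to the same array of the long arm. *ZNF616* was at 8.41, 8.23 and 6.54 CPM in the controls and at 10.8, 11.3 and 10.8 CPM with DAPT. *ZNF888* was at 4.23, 3.03 and 3.89 CPM and at 5.20, 6.51 and 5.53 CPM. In *ZNF888*, 92.5% of the 75-base windows were unique.

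*ZNF420* (37007857 to 37130368), known as Apak, a KRAB protein that binds p53 and limits its activity, was at 3.55, 4.55 and 3.48 CPM in the controls. With DAPT it was at 5.26, 5.996 and 5.92 CPM, a log2 fold change of 0.56 ± 0.16 (SE, with an adjusted p = 0.00885 in edgeR). *ZNF585B*, from the same array, was at 8.91, 8.02 and 8.86 CPM in the controls and at 13.5, 10.97 and 11.4 CPM with DAPT. Of its 75-base windows 85.5% were unique, and its counts leave out reads shared with close copies. *ZNF433* was at 2.55, 2.82 and 2.24 CPM and at 4.35, 3.88 and 3.69 CPM, a log2 fold change of 0.64 (adjusted p = 0.00984 in edgeR and 0.0573 in DESeq2, where it was not called). *ZNF543* rose from 3.67, 4.55 and 4.39 CPM to 6.04, 6.36 and 6.07 CPM, a log2 fold change of 0.56.

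**Figure D3:**
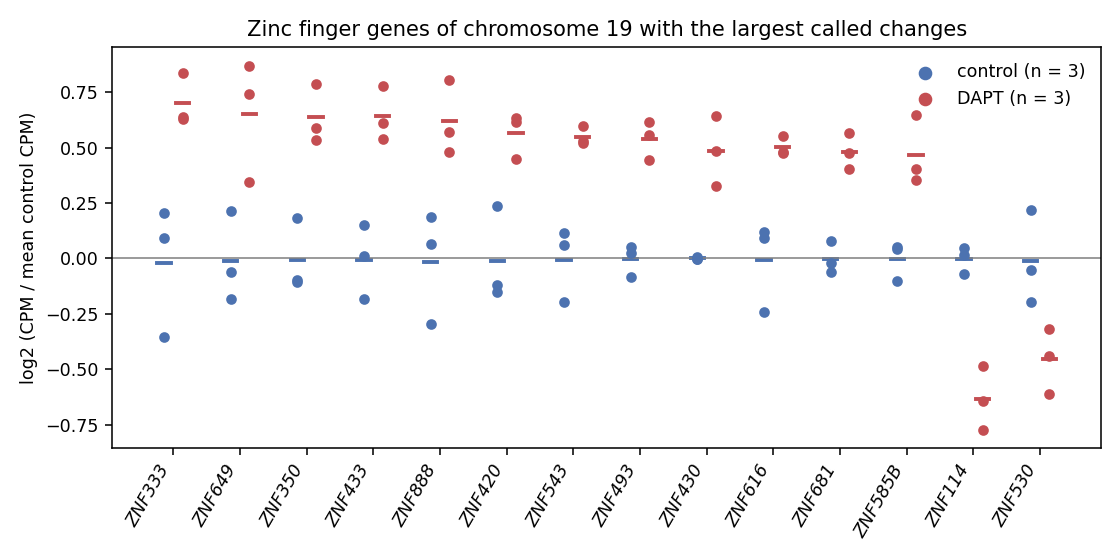
Log2 ratio of CPM to the mean control CPM (y axis) in each of the 3 control (blue) and 3 DAPT (red) libraries for the 14 members with the largest called changes, with a bar at the mean of each group. In the 12 higher members every DAPT point lies above every control point, and in *ZNF114* and *ZNF530* every DAPT point lies below, as the rule for naming required.

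A still larger estimate belonged to *ZNF460*, which fell short of the minimum of 1 CPM and is mentioned because of its position in the plot of level against change. It was at 0.560, 0.722 and 0.580 CPM in the controls and at 0.974, 1.46 and 1.15 CPM with DAPT, which were 7 to 10 reads and 15 to 20 reads per library. Its log2 fold change was 0.93 ± 0.34 (SE, with an adjusted p = 0.0397 in edgeR). *ZNF274*, which was picked after its value was seen, encodes a KRAB protein known to bind the 3′ ends of other zinc finger genes together with SETDB1. It rose from 16.7 to 19.98 CPM on average, a log2 fold change of 0.26 (adjusted p = 0.0237, edgeR).

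Decreases were called in 2 of the 175 tested members. *ZNF114* (48270081 to 48287608), a gene with a KRAB pattern and only 3 fingers, was at 51.2, 48.2 and 52.3 CPM in the controls and at 36.1, 32.4 and 29.6 CPM with DAPT. The groups were far apart, and the log2 fold change was -0.63 ± 0.08 (SE, with an adjusted p = 1.61e-06 in edgeR), the smallest adjusted p of all tested members. It was -0.61 without control replicate 1. *ZNF530* (57599885 to 57612722) was at 5.36, 4.84 and 6.46 CPM in the controls and at 3.64, 4.09 and 4.46 CPM with DAPT. Its log2 fold change of -0.45 (adjusted p = 0.0361, edgeR) was not called when control replicate 3, DAPT replicate 1 or DAPT replicate 2 was left out (adjusted p = 0.167, 0.133 and 0.0806).

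**Figure D4:**
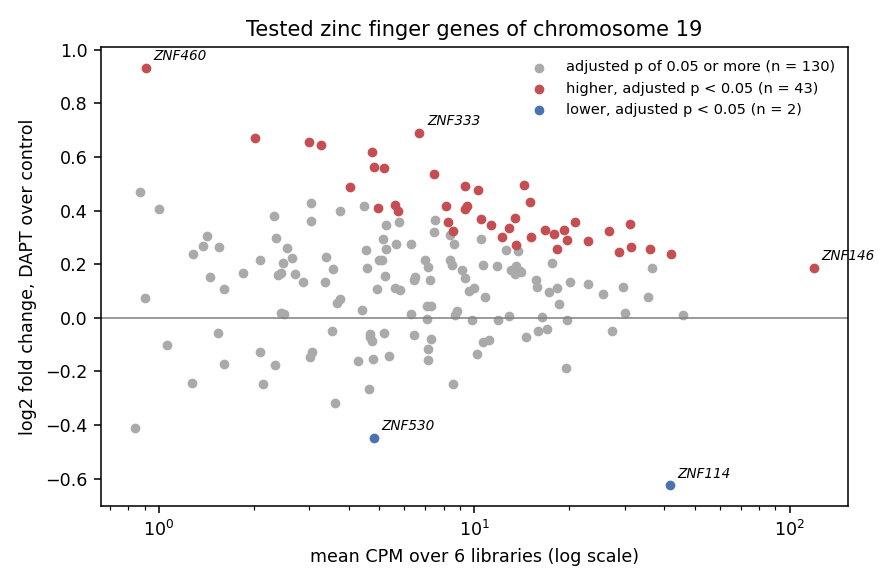
Log2 fold change of DAPT over control (y axis) against the mean CPM over 6 libraries (x axis, log scale) for the 175 tested zinc finger genes of chromosome 19. The 43 called increases (red) occur from 0.909 CPM (*ZNF460*) to 119 CPM (*ZNF146*), and the 2 called decreases (blue) are *ZNF114* and *ZNF530*.

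Among the 5 members with the highest level per kilobase of exon, changes were small apart from *ZNF114*. The level was 28.8 RPKM for *ZNF146*, 17.1 RPKM for *ZNF358*, 13.8 RPKM for *ZNF114*, 9.09 RPKM for *ZNF317* and 7.58 RPKM for *ZNF580*, each as the mean of 6 libraries. *ZNF146*, which encodes a protein made almost wholly of fingers, was at 119, 106.5 and 109 CPM in the controls and at 129, 129 and 123 CPM with DAPT. Its log2 fold change was 0.19 ± 0.05 (SE, with an adjusted p = 0.0103 in edgeR), and it was not called without control replicate 2 or 3 (adjusted p = 0.0758 and 0.0557). *ZNF580* rose by a log2 fold change of 0.29 (adjusted p = 0.0321, edgeR). Without control replicate 1 the value for *ZNF580* was 0.17 (adjusted p = 0.169) and without DAPT replicate 1 it was 0.21 (adjusted p = 0.176), and another gene on the same strand covered 15.6% of its exonic bases. For *ZNF317* the log2 fold change was 0.01 (adjusted p = 0.918) and for *ZNF358* 0.08 (adjusted p = 0.506). With the offset for GC content and length, *ZNF358* had a log2 fold change of 0.18 (adjusted p = 0.0346).

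The members fell into 16 groups of neighbours when a gap of more than 1 Mb was taken as a border, and 7 of these groups held at least 10 tested members. Increases were spread over both arms. In the array of the proximal short arm, from 19.7 to 24.1 Mb, 15 of 37 members were tested, 8 of these were higher and the median log2 fold change was 0.30. The arrays from 11.5 to 12.6 Mb and from 36.2 to 37.8 Mb had medians of 0.27 and 0.26, with 5 of 16 and 6 of 20 tested members higher. DESeq2 called 0 members in the former array and 4 in the latter, and limma-voom called 4 and 5. In the large arrays at the end of the long arm, 6 of 25 (51.6 to 53.6 Mb) and 11 of 48 tested members (55.5 to 58.5 Mb) were higher, where 17.2% of all tested genes were. In either direction, DESeq2 called 2 and 5 members in these arrays and 4 in the array of the proximal short arm. In the same order, limma-voom called 6, 12 and 8. Of all tested genes, DESeq2 called 12% higher and 14.5% lower. In the array from 43.5 to 45.1 Mb, edgeR called 0 of 21 tested members, 5 of them higher at an unadjusted p under 0.05, and the median was 0.13. DESeq2 and limma-voom also called 0 there, while edgeR without control replicate 1 called 4. Differences between these groups were not tested.

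**Figure D5:**
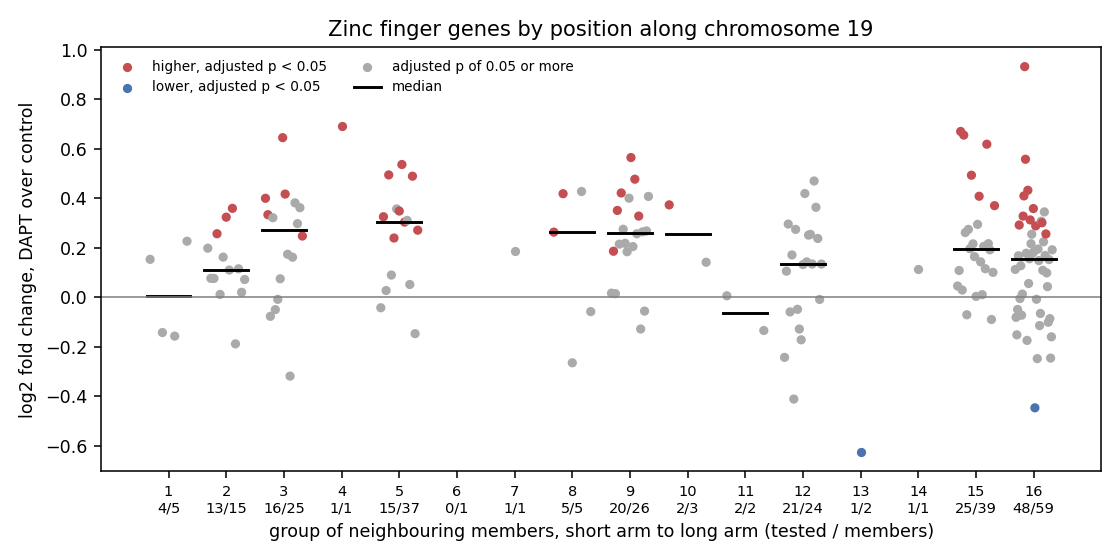
Log2 fold change of DAPT over control (y axis) of the 175 tested members in 16 groups of neighbours ordered along chromosome 19 (x axis, with tested and total members), with a bar at the median of groups with at least 2 tested genes. Points lie mostly above 0 in the large groups, with medians of 0.30 in group 5, 0.13 in group 12 and 0.15 in group 16.

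Members with and without the KRAB pattern were compared by their counts. With the pattern, 37 of 143 tested members were higher and 1 was lower, with a median log2 fold change of 0.20. Without it, 6 of 32 were higher (18.8%) and 1 was lower, with a median of 0.11. The share of increases was 25.9% with the pattern, against 17.2% of all tested genes, and without the pattern it was near that background. The exons of the former had a median GC content of 43.2% and those of the latter of 59.7%, and with the offset for GC content and length the medians were 0.16 and 0.15. Without control replicate 1 the medians were 0.24 and 0.000597. With the offset, 32 of 143 members with the pattern and 9 of 32 without it were higher, so the share was then larger without the pattern. In that fit 18.6% of all tested genes were higher. The difference between these classes was not tested.

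Of the 25 genes listed as partners of KRAB repression, all were tested, and 11 were lower with DAPT and 1 was higher, against 18% and 17.2% of all tested genes. *TRIM28* itself, the corepressor that KRAB domains bind, was at 217 CPM on average in the controls and 204 CPM with DAPT, with a log2 fold change of -0.09 ± 0.06 (SE, with an adjusted p = 0.247 in edgeR). For *SETDB1* the log2 fold change was 0.07 (adjusted p = 0.451). Lower values were called for the HP1 genes *CBX3* (-0.29) and *CBX5* (-0.28), the deacetylase genes *HDAC1* (-0.22) and *HDAC2* (-0.28), and *CHD3* (-0.16), which encodes a remodelling subunit of the NuRD complex. The DNA methylation genes *UHRF1* (-0.69), *DNMT3B* (-0.33) and *DNMT1* (-0.27) were also lower, as were *SUMO2* (-0.38), *DAXX* (-0.18) and *PPHLN1* (-0.18). Their relatives on the list *CBX1* (-0.12), *CHD4* (-0.05) and *DNMT3A* (0.18) were not called. Other genes on the same strand covered 46.9% of the exonic bases of *CHD4* and 14.3% of those of *DAXX*, where reads were not counted. The 1 higher gene was *MPHOSPH8* (0.16), which like *PPHLN1* encodes a subunit of the HUSH complex. Without control replicate 1, 12 of the 25 were lower and 4 higher, and scaling by library size alone gave 8 lower and 5 higher.

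Promoter sequences of RefSeq on GRCh38.p14 were matched by symbol to 154 of the 175 tested members. In the 250 bases before the RefSeq start, the hexamer TGGGAA, the core of sites bound by the Notch effector RBPJ, was searched on both strands. This start can differ from that of the counted gene. It occurred in 68 of the 154 promoters (44.2%), whereas 21.1% of all 27305 promoters in the table and 18.7% of those of tested protein-coding genes without a ZNF symbol held it. Among zinc finger genes on other chromosomes it occurred in 31.0% of 184 promoters. Its complement TTCCCA is also part of a longer sequence, ACTACA followed by any base and TTCCCA, the core of the site of the zinc finger factor ZNF143. This longer sequence occurred on either strand in 19 of the 154 promoters (12.3%), all among the 68, against 0.707% of all promoters. Members with and without the hexamer had similar values. With TGGGAA, 15 of 68 members were higher and the median log2 fold change was 0.18, and without it 23 of 86 were higher with the same median of 0.18. Of the 19 members with the longer sequence, 2 were higher and the median was 0.14. For comparison, 17.2% of all tested genes were higher.

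Promoters of 4 of the named members are given 5′ to 3′ as examples of a single match, of the repeated ZNF143-type match in *ZNF420* and of no match in *ZNF350*. Capitals mark TGGGAA or its complement, and *ZNF350* lies on the minus strand. For *ZNF420* the RefSeq start lies inside the counted gene (37007857 to 37130368), so the bases shown do not precede the start of that gene.
ZNF420, chr19:37078183-37078432: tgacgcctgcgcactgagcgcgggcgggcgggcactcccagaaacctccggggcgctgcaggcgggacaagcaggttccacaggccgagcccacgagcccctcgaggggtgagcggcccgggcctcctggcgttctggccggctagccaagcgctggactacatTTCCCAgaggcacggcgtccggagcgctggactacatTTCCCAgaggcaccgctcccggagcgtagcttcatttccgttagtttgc
ZNF543, chr19:57320222-57320471: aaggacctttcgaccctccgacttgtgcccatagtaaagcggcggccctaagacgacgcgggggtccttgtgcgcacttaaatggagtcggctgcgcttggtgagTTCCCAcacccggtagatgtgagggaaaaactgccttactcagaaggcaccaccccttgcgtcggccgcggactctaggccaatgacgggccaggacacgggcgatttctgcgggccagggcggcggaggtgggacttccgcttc
ZNF493, chr19:21396883-21397132: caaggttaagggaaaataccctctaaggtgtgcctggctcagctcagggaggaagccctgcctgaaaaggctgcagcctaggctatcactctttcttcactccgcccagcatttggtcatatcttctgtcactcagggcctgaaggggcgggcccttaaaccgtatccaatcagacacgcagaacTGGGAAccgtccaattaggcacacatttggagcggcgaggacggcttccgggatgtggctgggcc
ZNF350, chr19:51986841-51987090: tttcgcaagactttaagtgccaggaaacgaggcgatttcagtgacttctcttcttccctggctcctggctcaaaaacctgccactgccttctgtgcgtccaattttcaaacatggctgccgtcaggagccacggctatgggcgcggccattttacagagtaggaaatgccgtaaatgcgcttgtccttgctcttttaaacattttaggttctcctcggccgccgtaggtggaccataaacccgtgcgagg
A match describes these letters only. The log2 fold changes were 0.56 for *ZNF420*, 0.56 for *ZNF543*, 0.54 for *ZNF493* and 0.65 for *ZNF350*. All 4 genes were taken from the 12 largest called increases, so their similar values follow from this choice and say nothing about the matches.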

How the data were processed

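Single-end reads of 75 bases were trimmed (Trim Galore) and aligned (HISAT2, GRCh38) by the authors, who deposited raw read counts per Ensembl gene. Per the file headers, these counts were made with featureCounts 1.6.3 over exons on the gene's own strand, with an Ensembl release 96 annotation. Reads mapping to several places or overlapping several genes were not counted under the options used. Members and gene lists were chosen with earlier results of these data known. Symbols and biotypes came from GENCODE release 44 (58472 of 58884 identifiers matched), coordinates from the count tables. Counts were tested in R 4.3.3 with edgeR 4.0.16 (low-count filter with a minimum count of 10, TMM, robust quasi-likelihood fit, Benjamini-Hochberg adjustment over 15001 genes). Standard errors were derived from the F statistic. Medians per library used log2(CPM + 0.5). Alternatives were DESeq2 1.42.0, limma-voom (limma 3.58.1), RLE or library size scaling, other filters, the replicate number as a block, an offset for GC content and length (splines of 5 degrees of freedom), an adjusted p under 0.01, members with at most 10% same-strand overlap, and each library left out. A limit of 95% unique windows was added after the data were seen. Named were up to 12 called members in each direction with at least 1 CPM and no overlap between groups, the 5 highest by RPKM and the partner list. Proteins were translated from the annotation instead of taken from RefSeq. In counts simulated for this comparison on 15001 genes with 200 changed 2-fold, edgeR called 92.9% of those changed genes it tested, and unchanged genes made up 6.67% of the calls. In the data 35.2% of all tested genes were called, and the changes of the members were all under 2-fold. The simulated share of 92.9% therefore does not apply to changes of that size.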

Additional observations from a re-analysis of the deposited data

How the results depend on the processing

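The median log2 fold change of the tested members stayed above 0 in all alternatives. It was 0.22 with scaling by library size alone, where the median of all tested genes was 0.06, and 0.14 without a low-count filter, where 227 members were tested. DESeq2 gave 21 higher (12%, against 12% of all tested genes) and 1 lower member, scaling by library size alone 53 higher (30.3%, against 22.97%) and 1 lower, and an adjusted p under 0.01 gave 17 higher (9.71%, against 10.1%) and 1 lower. With 1 library left out at a time there were between 23 and 48 higher members, 1 or 2 lower members and medians between 0.15 and 0.20. In these fits the log2 fold change of *ZNF358* ran from -0.0128 (without control replicate 1) to 0.170 and that of *ZNF317* from -0.0473 (without control replicate 2) to 0.0521, neither of which was called in the fit of all libraries. The cause of these differences was not tested. When the replicate number entered as a replicate block, 41 members were higher (23.4%, against 17.1% of all tested genes), 39 of them among the 43. In that fit 2 were lower and the median was 0.18. Correlations of same-numbered libraries between groups, taken after the group means were subtracted, lay between 0.00382 and 0.0252. Differently numbered libraries were not set beside them, and whether same-numbered samples share a batch was not tested. With the offset for GC content and length, the block gave 41 higher (23.4%, against 18.8% of all tested genes) and 3 lower members. Without members that share over 10% of their exonic bases, 37 of 150 were higher and 2 lower, and among members with at least 95% unique windows 36 of 152 were higher and 2 lower. Of the 71 members not tested, 52 had reads but fell below the low-count filter and 19 had no read, and at this depth a gene without reads cannot be told from one expressed under the limit of 3 reads.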

Other observations

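Chromosome 19 also holds zinc finger genes under other symbols, which were looked up after the results on the members were seen. Of 5 tested protein-coding genes named ZFP, ZIM, ZIK, ZSCAN or ZKSCAN, 2 were higher with DAPT in edgeR's test, where 17.2% of all tested genes were. *ZFP14* was at 7.06 CPM on average in the controls and 10.5 CPM with DAPT, a log2 fold change of 0.55 (adjusted p = 0.0178, edgeR). *ZFP36*, whose product is an RNA-binding protein with fingers of another type that destabilizes transcripts, rose from 18.7 to 26.6 CPM, a log2 fold change of 0.52 (adjusted p = 6.78e-05, edgeR).

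Of 11 tested genes on chromosome 19 that carry a ZNF symbol but are not protein-coding, such as antisense RNAs, divergent transcripts and pseudogenes, 8 had a log2 fold change above 0 and edgeR called 1. This was the divergent transcript *ZNF8-DT*, at 2.81 CPM on average in the controls and 1.85 CPM with DAPT (log2 fold change -0.61, adjusted p = 0.0352, edgeR).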
